A study of Chlorocebus sabaeus with 10 samples.

Results

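The genes described here are the phase II conjugation enzymes of the vervet monkey liver: the UDP-glucuronosyltransferases (UGT), the sulfotransferases (SULT), the glutathione S-transferases (GST) and the microsomal glutathione S-transferases (MGST). They were chosen by gene symbol alone (UGT families 1 to 3, SULT families 1 and 2, GST classes A, K, M, O, P, T and Z, and MGST), and the rule uses no measured value, although it was set with earlier results of these data known. The symbols matched 24 transcripts of 23 genes among the 23352 genes listed, since GSTM4 had 2 transcripts, and each gene was represented by its transcript with the highest mean count. Of the 23 genes, 13 had enough reads to be compared between the diets. UGT1 genes and GSTT genes were not analysed here.

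These enzymes attach a polar group to drugs, steroids, bilirubin, bile acids and reactive by-products of metabolism, so that the products dissolve in bile or urine. UGT enzymes transfer glucuronic acid from UDP-glucuronic acid, SULT enzymes transfer sulfate from the activated donor PAPS, and GST enzymes add glutathione to electrophiles. In the liver they act mostly in hepatocytes.

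Liver RNA came from 10 female vervet monkeys (Chlorocebus sabaeus), each a separate animal with 1 library. All 10 had eaten chow before the study, and then 5 were given a high fructose (HFr) diet and 5 were kept on chow for 6 weeks. The comparison asked how the liver responds to dietary fructose over a short period. The tissue was a liver biopsy, flash frozen, so the values are of all cells of the sample together, and fewer cells of a type cannot be told apart from less RNA per cell.

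Each library held 2977282 to 4992505 estimated counts, of which 34.7% to 73.6% fell on mitochondrial transcripts. The 23 genes matched by symbol took 0.455% to 0.830% of the nuclear counts. Any conjugation enzyme without a matching symbol is not in this share. The hepatocyte markers were present at a summed level of 49963 to 75272 normalized counts on HFr and 40584 to 81186 on chow. None of the 8 had an unadjusted p under 0.05, where 4.29% of all transcripts tested had one. Each unadjusted p here is from edgeR's quasi-likelihood test unless another test is named. TF (transferrin) was the 1 of the 8 with an exact permutation p under 0.05 (p = 0.0397), at 5731 ± 328 normalized counts on HFr and 4447 ± 1102 on chow (SD, n = 5 each). Here a normalized count is the estimated count relative to the library size (CPM), after scaling by TMM, which corrects for unequal composition of the libraries. It was not divided by transcript length, so levels are compared between animals and not between genes. Animals are named HFr1 to HFr5 and Chow1 to Chow5.

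None of the 13 conjugation enzymes differed between HFr and chow livers beyond the spread between animals. In edgeR's quasi-likelihood test, 0 of 13 had an unadjusted p under 0.05, where 4.29% of the 7948 transcripts tested had one. The count was also 0 after Benjamini-Hochberg adjustment (smallest adjusted p of a member 0.9996), where the share of all transcripts tested was 0%. The HFr and chow animals overlapped for each of the 13, where 0.541% of all transcripts tested had no overlap. DESeq2 and limma gave no member an unadjusted p under 0.05 either, although DESeq2 gave no p for UGT3A1. An equal-variance test on the authors' normalized values gave 1, GSTZ1 (p = 0.0278), where 4.32% of all transcripts tested had one.

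Of the 13, 8 had lower mean levels on HFr and 5 had higher ones, where 50.2% of all transcripts tested were lower on HFr. The median log2 fold change (HFr minus chow) was -0.07, beside -0.00075 over all transcripts tested. The log2 fold changes of GSTM5 (0.006), MGST2 (-0.007) and MGST3 (0.011) were near 0, and other scalings of the libraries turned the sign of GSTM5 (-0.10 with library size only) and MGST2 (0.004 with upper quartile normalization). The median size of the log2 fold change was 0.17 among the members and 0.17 among all transcripts tested. The 95% interval of the difference stayed within a 2-fold change in either direction for 9 of the 13. It reached past 2-fold for UGT3A1, MGST1, SULT1C4 and GSTA1, so a difference of that size lay inside the interval for these 4. The median ratio of the highest to the lowest animal was 3.04 for the members and 2.40 for all transcripts tested.

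**Figure D1:**
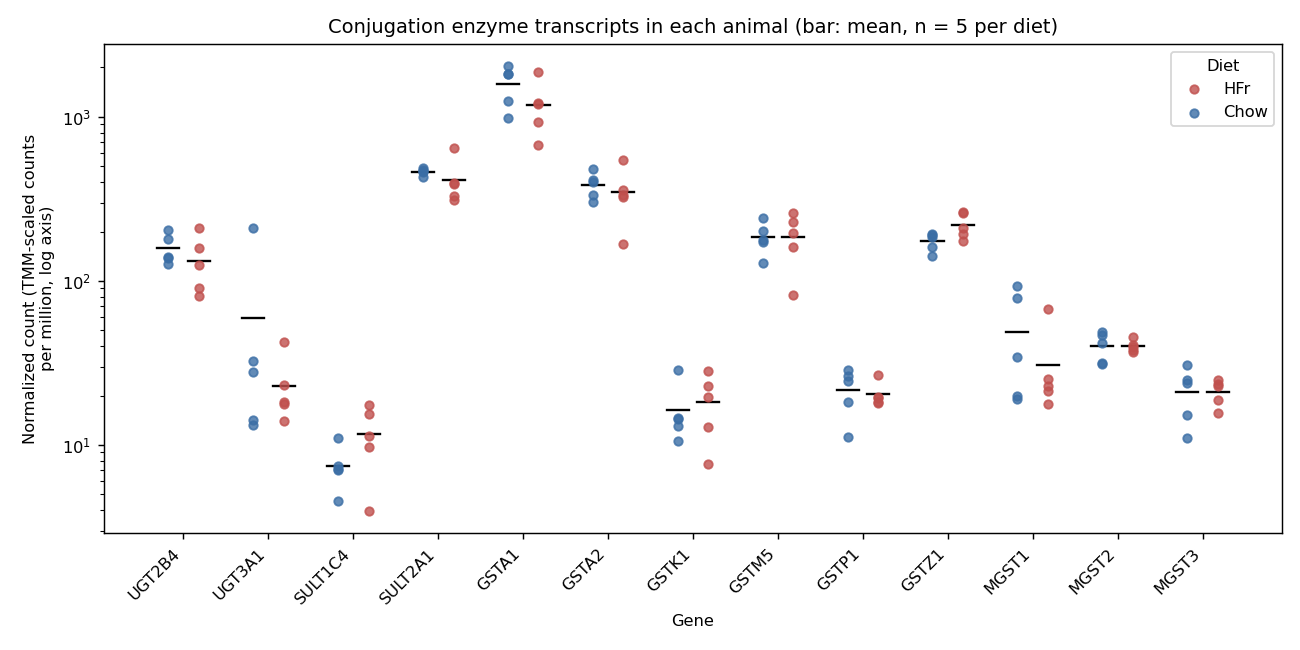
Normalized counts (log axis) of the 13 tested conjugation enzymes, 1 point per animal, chow to the left and HFr to the right, with a bar at the mean of 5 animals. The diets overlap for each gene, and 1 chow animal lies far above the others for UGT3A1 (211 against 13.3 to 32.3).

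**Figure D2:**
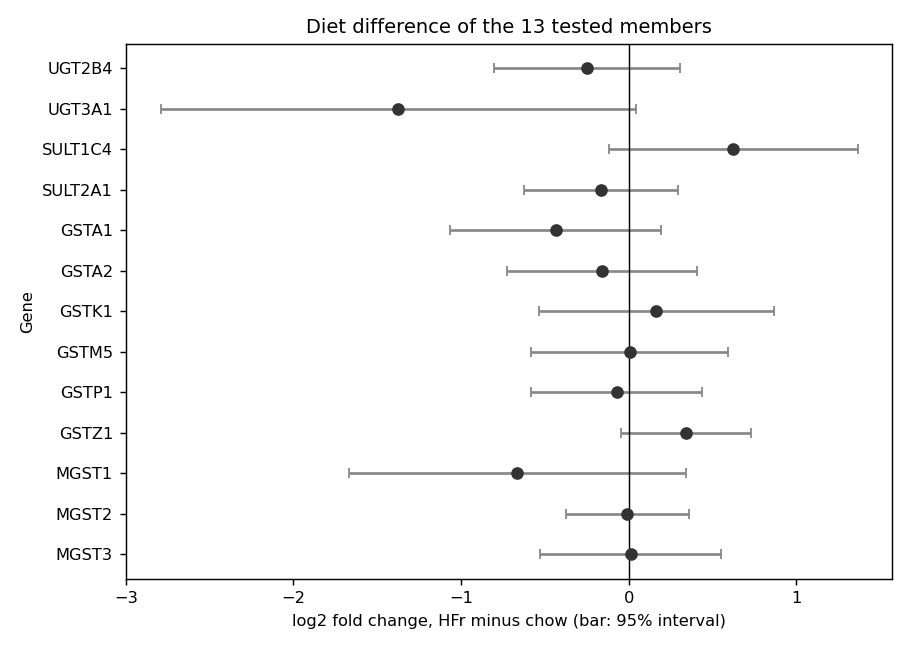
Log2 fold change (HFr minus chow) of the 13 tested conjugation enzymes with 95% intervals from edgeR's quasi-likelihood fit. Each interval includes 0, and that of UGT3A1 is the widest, from -2.79 to 0.04.

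The glucuronosyltransferases were represented by 4 genes, UGT2A1, UGT2B4, UGT3A1 and UGT3A2, of which UGT2B4 and UGT3A1 were tested. UGT2B4, which glucuronidates bile acids and steroids, lies on chromosome 7 (17971037 to 17987897, minus strand) in build ChlSab1.1. Its normalized counts were 80.6, 90.2, 159, 125 and 210 in HFr1 to HFr5 and 127, 181, 204, 139 and 137 in Chow1 to Chow5. The lowest 3 values were those of HFr1, HFr2 and HFr4, but the highest was that of HFr5, and the diets overlapped. The means were 133 ± 53.0 on HFr and 158 ± 33.0 on chow (SD, n = 5 each), which gave a log2 fold change of -0.25 (SE 0.26, edgeR quasi-likelihood p = 0.355, exact permutation p = 0.310).

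UGT3A1 differs from the classical UGT enzymes in using UDP-N-acetylglucosamine as its sugar donor. Its gene is on chromosome 4 (34795751 to 34839803, minus strand). It was measured at 13.9, 23.1, 17.8, 18.2 and 42.1 normalized counts in HFr1 to HFr5 and at 13.3, 211, 32.3, 27.8 and 14.2 in Chow1 to Chow5. Chow2 stood 5.01 times above the next highest animal, HFr5, while the other 4 chow animals lay within the range of the HFr animals or, for Chow1, just below it. The ratio of the highest to the lowest animal was 15.9, at the 97.9th percentile of the transcripts tested.

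The mean of UGT3A1 was 23.0 ± 11.2 on HFr and 59.7 ± 85.0 on chow (SD, n = 5 each). The log2 fold change of -1.38 (SE 0.66, edgeR p = 0.0563) was the largest in size among the members in edgeR, and the exact permutation test gave p = 0.563. It was smaller in size in fits on a log scale, at -0.60 with limma (pseudocount 1), -0.56 with the equal-variance test on the authors' values and -0.63 with voom weights, and also with the mitochondrial percent as a covariate (-0.87). With Chow2 left out it was 0.09, so the lower level on HFr depended on Chow2. Without any 1 of the other 4 chow animals, or without HFr5, the log2 fold change was -1.72 to -1.54 with an unadjusted p under 0.05 in edgeR, and each of these fits still held Chow2.

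The high level of UGT3A1 in Chow2 was shared by the nearest gene on 1 side. CAPSL, a gene coding for a calcium-binding protein, lies 32025 bases away on the same strand (chromosome 4, 34750358 to 34763725). Chow2 had 264 normalized counts of CAPSL, from 1206 estimated counts, and 964 estimated counts of UGT3A1. The other chow animals had 8.73 to 18.3 normalized counts of CAPSL and the HFr animals 2.02 to 5.78, so the diets did not overlap for CAPSL, with or without Chow2. CAPSL was among the 0.541% of transcripts with no overlap (edgeR adjusted p = 0.994, exact permutation p = 0.00794, the smallest that 5 against 5 animals can give).

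SKP2 and NADK2, 169272 and 203010 bases from UGT3A1 on its other side, did not share the high level of Chow2. The other neighbours looked at (SPEF2, IL7R, LMBRD2 and RANBP3L) had at most 28 counts in any animal and were not tested. UGT3A2, the paralog of UGT3A1 on that side, had no count in any of the 10 animals, so it cannot show whether the high level reached it. SKP2, part of a ubiquitin ligase, was at 13.6 normalized counts in Chow2 and 6.41 to 14.2 in the others. NADK2, a mitochondrial NAD kinase, was at 182 in Chow2 and 102 to 194 in the others. NADK2 was lower on HFr at 126 ± 14.6 than on chow at 177 ± 22.2 (SD, n = 5 each), with overlap (log2 fold change -0.49, SE 0.17, edgeR p = 0.0108, exact permutation p = 0.0159, adjusted p = 0.9996). CAPSL and the other neighbours were looked at after the values of UGT3A1 had been seen. Of the 7948 transcripts tested, 9 had a highest animal at 4 times the next or more, of which CAPSL and UGT3A1 were the 2 in Chow2, while 6 were in Chow3 and 1 was in HFr2.

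**Figure D3:**
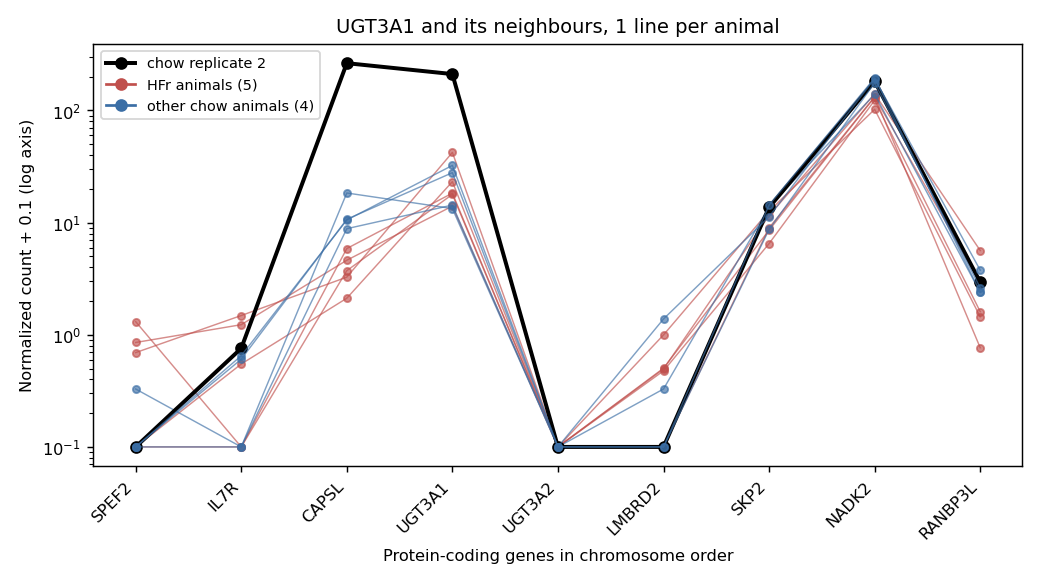
Normalized counts (0.1 added, log axis) of UGT3A1 and the protein-coding genes around it in chromosome order, with 1 line per animal. Chow2 (black) stands above the other 9 animals at CAPSL (264) and UGT3A1 (211) and lies within their range at SKP2 (13.6) and NADK2 (182).

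The sulfotransferases were represented by 6 genes, of which SULT2A1 and SULT1C4 were tested. SULT2A1, the liver and adrenal enzyme that sulfates DHEA and bile acids, is on chromosome 6 (41159978 to 41175300, minus strand). It had normalized counts of 328, 388, 310, 397 and 642 in HFr1 to HFr5 and 458, 489, 428, 466 and 474 in Chow1 to Chow5. HFr5 lay above each of the chow animals and the other 4 HFr animals lay below each of them.

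The chow animals were close together for SULT2A1 (463 ± 22.7, SD, n = 5) and the HFr animals were spread out (413 ± 133, SD, n = 5). The fitted log2 fold change was -0.16 (SE 0.21, edgeR p = 0.456, exact permutation p = 0.294). Without HFr5 it was -0.38, and the unadjusted p was not under 0.05 there either.

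SULT1C4, a member of the SULT1C group that sulfates phenolic compounds, is on chromosome 14 (11861211 to 11871767, plus strand). Its counts were low, from 9 to 78 estimated counts per animal. The normalized counts were 15.4, 17.5, 11.3, 9.77 and 3.96 in HFr1 to HFr5 and 7.08, 7.45, 7.15, 4.55 and 11.0 in Chow1 to Chow5. HFr1, HFr2 and HFr3 were the highest 3 animals and HFr5 was the lowest of all 10.

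The means of SULT1C4 were 11.6 ± 5.28 on HFr and 7.45 ± 2.32 on chow (SD, n = 5 each), which gave a log2 fold change of 0.62 (SE 0.35, edgeR p = 0.0935, exact permutation p = 0.238). Its 95% interval ran from -0.12 to 1.37. It was 1 of the 5 members with a higher mean on HFr, and the one with the largest difference among them. Without HFr5 the log2 fold change was 0.86, with an unadjusted p under 0.05 in edgeR.

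The other SULT genes had few reads. SULT1B1, which sulfates thyroid hormones and phenols, had 2 to 30 estimated counts per animal, 49 on HFr and 50 on chow in sum. SULT1C2 had 1 count on HFr and 8 on chow, of which 7 were in Chow2, and it shares chromosome 14 with SULT1C4. SULT1C3 of that cluster and SULT2B1, the cholesterol sulfotransferase, had no count in any animal, as did UGT2A1 and UGT3A2. A count of 0 among 36299748 estimated counts allows up to 0.0826 CPM (3 counts), and this limit covers counting error only.

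The cytosolic and mitochondrial glutathione transferases were represented by 10 genes, of which 6 were tested, with 3 lower and 3 higher on HFr. GSTA1, the main alpha class enzyme of hepatocytes, is on chromosome 17 (19726106 to 19744247, plus strand). In HFr1 to HFr5 it was at 1196, 669, 1210, 924 and 1870 normalized counts, and at 982, 1253, 1830, 1835 and 2034 in Chow1 to Chow5. Chow3, Chow4, Chow5 and HFr5 lay at 1830 or above, and the other 6 animals, 4 HFr and 2 chow, lay between 669 and 1253.

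The means of GSTA1 were 1174 ± 448 on HFr and 1587 ± 447 on chow (SD, n = 5 each), which gave a log2 fold change of -0.43 (SE 0.29, 95% interval -1.07 to 0.20, edgeR p = 0.161, exact permutation p = 0.167). Without HFr5 it was -0.67, with an unadjusted p under 0.05 in edgeR. GSTA2, an alpha class neighbour on chromosome 17, ranged from 168 to 543 normalized counts on HFr and from 303 to 478 on chow, with a log2 fold change of -0.16 (SE 0.26, edgeR p = 0.560, exact permutation p = 0.500).

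The annotated span of GSTA2 covers that of GSTA1, and the estimated counts of both were fractional in all 10 animals. Fractional counts arise where reads are divided between transcripts, and which transcripts shared them was not tested, so how reads divide between GSTA1 and GSTA2 is uncertain. GSTA1 took 69.0% to 85.3% of their sum on HFr and 76.4% to 83.6% on chow. The sum itself was 837 to 2194 normalized counts on HFr and 1286 to 2433 on chow, a log2 fold change of -0.38 (SE 0.28, edgeR p = 0.205, exact permutation p = 0.190), a comparison added after the values were seen. GSTA4, which conjugates the lipid peroxidation product 4-hydroxynonenal, had 1 to 8 counts per animal, 12 on HFr and 28 on chow in sum, and was not tested.

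GSTZ1, the maleylacetoacetate isomerase of tyrosine breakdown, was the member with the second smallest p. It is on chromosome 24 (54567655 to 54579613, plus strand). GSTZ1 was at normalized counts of 211, 263, 176, 258 and 193 in HFr1 to HFr5 and 160, 191, 141, 184 and 193 in Chow1 to Chow5. HFr1, HFr2 and HFr4 were the highest 3 animals, and each of the 5 HFr values exceeded the mean of the chow animals, but HFr3 lay below 3 of the chow animals.

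The means of GSTZ1 were 220 ± 38.9 on HFr and 174 ± 22.6 on chow (SD, n = 5 each). The log2 fold change was 0.34 (SE 0.18, 95% interval -0.05 to 0.73, edgeR p = 0.0804, exact permutation p = 0.0635). It was between 0.27 and 0.40 with any 1 animal left out, which was a narrower range than those of UGT3A1 (-1.72 to 0.09) and MGST1 (-1.18 to -0.30). The equal-variance test on the authors' normalized values gave GSTZ1 a log2 fold change of 0.37 with an unadjusted p of 0.0278.

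GSTM5, a mu class enzyme, was the tested mu class gene, on chromosome 20 (23839455 to 23875111, minus strand). It had 162, 82.1, 259, 196 and 228 normalized counts in HFr1 to HFr5 and 129, 201, 241, 177 and 173 in Chow1 to Chow5. The highest and the lowest animal were both on HFr, and the means were nearly equal at 185 ± 68.1 and 184 ± 41.1 (SD, n = 5 each). The difference on the log2 scale was 0.01 (SE 0.27, 95% interval -0.58 to 0.59, edgeR p = 0.983, exact permutation p = 0.857), and its sign turned with the processing.

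The other mu class genes of that cluster were not tested. GSTM3 had 0 to 7 and GSTM4 2 to 11 estimated counts per animal. Their sums were 13 on HFr and 24 on chow for GSTM3, and 31 and 32 for GSTM4. GSTO2, an omega class enzyme that reduces dehydroascorbate, had 0 to 3 counts per animal, 8 on each diet.

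GSTK1, the kappa class enzyme of mitochondria and peroxisomes, is on chromosome 21 (112149970 to 112155300, plus strand). GSTK1 was at 12.8, 22.9, 7.67, 19.5 and 28.3 normalized counts in HFr1 to HFr5 and 14.6, 28.7, 14.5, 13.1 and 10.6 in Chow1 to Chow5. HFr5 and Chow2 were the highest animals, at nearly the same level, and HFr3 was the lowest. The difference of GSTK1 on the log2 scale was 0.17 (SE 0.33, edgeR p = 0.622, exact permutation p = 0.802).

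GSTP1, the pi class enzyme, which in normal liver is found more in bile duct cells than in hepatocytes, is on chromosome 1 (6675376 to 6713580, minus strand). GSTP1 was at 18.1, 19.5, 26.6, 19.3 and 18.4 normalized counts in HFr1 to HFr5 and 24.5, 18.2, 11.2, 26.3 and 28.5 in Chow1 to Chow5. HFr3 was the highest HFr animal, the other 4 were close to each other, and the chow animals lay on both sides of them. For GSTP1 the log2 fold change was -0.07 (SE 0.24, edgeR p = 0.764, exact permutation p = 0.960). The 3 tested cholangiocyte markers had lower means on HFr with no unadjusted p under 0.05. Of the untested ones, KRT7 had a higher mean on HFr (4.28 normalized counts against 3.50 on chow), and KRT19, SPP1 and CLDN4 had lower ones. The summed level of the list was 8.51 to 37.0 on HFr and 17.2 to 43.1 on chow. Its part in the level of GSTP1 was not tested.

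The 3 microsomal glutathione transferases, membrane proteins that act on glutathione conjugation and lipid peroxides, were all tested. MGST2, which also has leukotriene C4 synthase activity, is on chromosome 7 (86629642 to 86666857, plus strand). It was measured at 45.2, 40.6, 36.7, 37.8 and 39.4 normalized counts in HFr1 to HFr5 and at 31.3, 41.8, 48.6, 47.0 and 31.7 in Chow1 to Chow5. All 5 HFr animals lay within the range of the chow animals. The log2 fold change was -0.01 (SE 0.17, 95% interval -0.37 to 0.36, edgeR p = 0.967, exact permutation p = 0.937), and its ratio of the highest to the lowest animal, 1.55, was at the 5.36th percentile of the transcripts tested.

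MGST1, the liver enzyme of the endoplasmic reticulum and the outer mitochondrial membrane, is on chromosome 11 (16277434 to 16287171, plus strand). Its normalized counts were 17.7, 25.1, 23.0, 21.3 and 67.3 in HFr1 to HFr5 and 19.2, 92.6, 78.3, 34.4 and 19.8 in Chow1 to Chow5. The 3 highest animals stood well above the rest, Chow2 and Chow3 on chow and HFr5 on HFr, and the other 7 lay between 17.7 and 34.4. The means were 30.9 ± 20.5 on HFr and 48.9 ± 34.4 on chow (SD, n = 5 each).

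The log2 fold change of MGST1 was -0.66 (SE 0.47, 95% interval -1.67 to 0.34, edgeR p = 0.179, exact permutation p = 0.333). It was -1.18 without HFr5, with an unadjusted p under 0.05 in edgeR, and -0.30 without Chow2. The 3 animals with high MGST1 had mitochondrial shares of 44.0% (HFr5), 34.7% (Chow2) and 43.0% (Chow3), which were 3 of the 4 lowest, and HFr2, with 41.8%, had 25.1 normalized counts of MGST1. The part of the mitochondrial share in the level of MGST1 was not tested. MGST3, which has glutathione peroxidase activity, ranged from 15.8 to 24.9 normalized counts on HFr and from 11.0 to 30.8 on chow (log2 fold change 0.01, SE 0.25, edgeR p = 0.965, exact permutation p = 0.825).

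A single animal on each diet was often at the edge of its group. HFr5 was the highest HFr animal for 7 of the 13 members, and it was the highest HFr animal for 19.8% of all transcripts tested. Chow1 was the lowest chow animal for 8 of the 13, beside 18.6% of all transcripts tested. The members share tissue and libraries, so they are not independent counts of an animal's level.

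Without HFr5, 4 of 13 members had an unadjusted p under 0.05 in edgeR's quasi-likelihood test, where 4.93% of the 8107 transcripts tested in that fit had one. GSTA1, MGST1 and UGT3A1 were the 3 with a lower level on HFr, and SULT1C4 was the one with a higher level. In that fit 11 of the 13 members were lower on HFr, beside 50.9% of all transcripts tested. Without Chow2 6 of 13 were lower, beside 49.9%. No member had an adjusted p under 0.05 with any animal left out. The labels give no reason to set HFr5 or Chow2 aside.

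**Figure D4:**
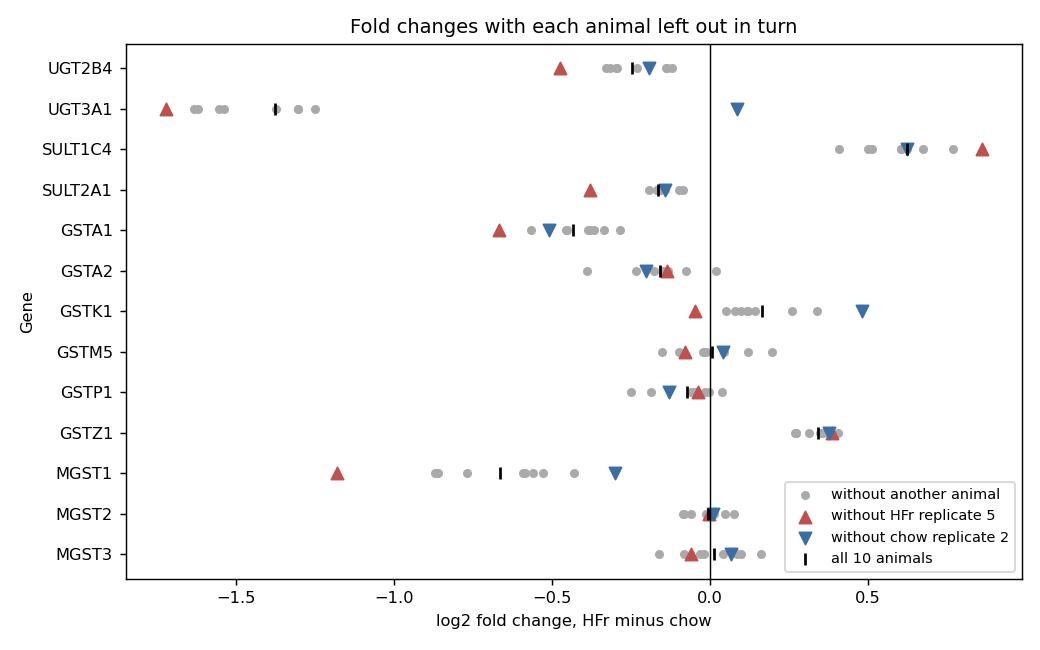
Log2 fold change (HFr minus chow) of the 13 tested members with all 10 animals (vertical tick) and with each animal left out in turn. Leaving out HFr5 (triangle up) moves MGST1 to -1.18 and SULT1C4 to 0.86, and leaving out Chow2 (triangle down) moves UGT3A1 to 0.09.

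The genes that supply the donor molecules did not pass the test either. Of all transcripts tested, 4.29% had an unadjusted p under 0.05, and this share applies to each list below. Of the glucuronidation supply genes, 3 of the 6 listed were tested and 1 was lower, 2 were higher and 0 had an unadjusted p under 0.05. UGDH, which makes UDP-glucuronic acid, was at 52.0 ± 14.5 normalized counts on HFr and 58.3 ± 15.5 on chow (SD, n = 5 each), with a log2 fold change of -0.17 (SE 0.23). Of the 8 genes of sulfate donor supply and sulfate removal, 5 were tested, with 2 lower, 3 higher and 0 under 0.05.

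The enzymes that make the sulfate donor had low levels. PAPSS1 was at 3.24 ± 1.01 normalized counts on HFr and 3.91 ± 1.96 on chow, and PAPSS2 was at 4.95 ± 2.15 and 4.71 ± 1.98 (SD, n = 5 each). Their log2 fold changes were -0.23 (SE 0.37) and 0.07 (SE 0.35), and that of PAPSS2 was -0.25 without HFr2. Of the 11 genes of glutathione supply and turnover, 6 were tested, with 2 lower, 4 higher and 0 under 0.05.

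GCLC, the catalytic subunit of the enzyme that limits glutathione synthesis, had 59.9 to 89.6 normalized counts on HFr and 83.9 to 136 on chow. Each of the 5 HFr values was under the mean of the chow animals, and the diets overlapped. The means were 78.4 ± 14.3 and 102 ± 21.2 (SD, n = 5 each), and the log2 fold change was -0.39 (SE 0.19, edgeR p = 0.0637, exact permutation p = 0.0794). Without Chow4 it was -0.45, with an unadjusted p under 0.05 in edgeR.

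Of 15 listed regulators of conjugation genes, 9 were tested, with 5 lower, 4 higher and 0 under an unadjusted p of 0.05. NR1I2, the pregnane X receptor, had a log2 fold change of 0.56 (SE 0.39, edgeR p = 0.171, exact permutation p = 0.230). NR1I3, the constitutive androstane receptor, had -0.07 (SE 0.19), and NFE2L2, the factor NRF2 that induces many GST genes under oxidative stress, had -0.06 (SE 0.27), which turned to 0.02 with limma (pseudocount 1) and to 0.25 without Chow3. AHR was not analysed here.

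Among 15 enzymes of other conjugation reactions (methyl, acetyl, glycine and taurine transfer), 12 were tested, with 8 lower and 4 higher. ACSM5, a mitochondrial acyl-CoA synthetase of medium-chain acids, was the only one of the 12 under an unadjusted p of 0.05, beside 4.29% of all transcripts tested. It had a log2 fold change of -1.39 (SE 0.59, edgeR p = 0.0327, exact permutation p = 0.563). Its normalized counts were 4.49 to 8.88 on HFr and 0.460 to 38.1 on chow, so the chow animals lay on both sides of the HFr animals. It was not under 0.05 with DESeq2, limma, voom weights or the equal-variance test, nor in edgeR with robust dispersion or the mitochondrial covariate, nor without HFr1, HFr2, Chow2 or Chow3, and the log2 fold change was -0.90 without Chow3 and -0.53 with limma (pseudocount 1).

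Of 7 transporters that export conjugates, 6 were tested, with 2 lower and 4 higher. ABCC5, an export pump of the multidrug resistance protein family, had 31.9 to 42.2 normalized counts on HFr and 16.9 to 37.9 on chow, with overlap, although each of the 5 HFr values exceeded the mean of the chow animals. The log2 fold change was 0.49 (SE 0.21, edgeR p = 0.0357, exact permutation p = 0.0556), which did not pass after adjustment. It was the only transporter with an unadjusted p under 0.05, where 4.29% of all transcripts tested had one. It was not under 0.05 in edgeR with library size only or when HFr1, HFr2, HFr5, Chow2, Chow3 or Chow5 was left out.

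Markers of where hepatocytes lie in the lobule were set beside the enzymes, since many conjugation enzymes are zoned. The 5 tested pericentral markers all had lower means on HFr, and of the 8 tested periportal markers 1 was lower and 7 were higher. Of all transcripts tested, 50.2% were lower. None of these markers was under an unadjusted p of 0.05, where 4.29% of all transcripts tested were. The median log2 fold change was -0.18 for the pericentral and 0.14 for the periportal markers. The largest in size were OAT at -1.03 (SE 0.51), with Chow1 at 1167 normalized counts, and HAL at 0.68 (SE 0.61). The summed level of the pericentral list was 2623 to 5059 normalized counts on HFr and 3894 to 5580 on chow, and that of the periportal list 2032 to 4253 and 2961 to 3915. Both overlapped between the diets. The part of lobule position in the levels of the enzymes was not tested.

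Of the markers of other liver cells, 1 of 7 endothelial genes and 1 of 6 stellate cell and fibroblast genes had an unadjusted p under 0.05. The share of all transcripts tested with such a p was 4.29%. KDR, the endothelial VEGF receptor, was higher on HFr (log2 fold change 0.57, SE 0.19, edgeR p = 0.0109, exact permutation p = 0.0317), and ACTA2, the smooth muscle actin of activated stellate cells, was lower (-1.57, SE 0.49, edgeR p = 0.00646, exact permutation p = 0.0476). Of the 7 endothelial genes, 5 were higher on HFr and 2 were lower, VWF (-0.21) and CDH5 (-0.02). Of the 6 stellate cell and fibroblast genes, 5 were lower and 1 was higher, COL1A1 (0.20). None of the 6 macrophage markers or the 3 lymphocyte markers tested was under 0.05, and no marker passed after adjustment. Their part in the levels of the conjugation enzymes was not tested.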

How the data were processed

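Libraries were made from total liver RNA with a stranded poly(A) kit. For the deposited estimated counts, the authors aligned 100 base reads with STAR 2.5.3a to ChlSab1.1 and divided them over the transcripts of Ensembl 93 with the expectation-maximization step of Partek Flow. These counts were not normalized and are in part fractional. A second deposited table holds normalized signal values, for which the authors used TMM scaling, and it served for 1 alternative. Coordinates are those of the deposited tables.

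Counts were rounded, filtered (filterByExpr, minimum count 10, minimum total 15) and compared with edgeR 4.0.16 (TMM, quasi-likelihood test, diet as the only term) in R 4.3.3, with Benjamini-Hochberg adjustment over 7948 transcripts. The standard error is the log2 fold change divided by the square root of F. Exact permutation tests were two-sided over the 252 assignments of 5 of 10 animals, on log2 of the normalized count plus 1 (smallest possible p 0.00794). The fit was tested on simulated counts.

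The members and lists were chosen with earlier results of these data known. Values in every animal are given for the most abundant tested member of each subfamily, the 4 with the largest log2 fold change, the 3 with the largest ratio of highest to lowest animal and any with an unadjusted p under 0.05 or no overlap. Of the other genes, 7 of 8 donor enzymes and regulators always named (AHR being the exception) and any with an unadjusted p under 0.05 are given. Alternatives used DESeq2 1.42.0, limma 3.58.1, other scalings and filters, counts summed by gene, an equal-variance test on the authors' values, voom weights, a replicate block, no mitochondrial transcripts, unrounded counts, robust dispersion and each animal left out. The mitochondrial percent as a covariate and the summed GSTA1 and GSTA2 were added after the values were seen.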

Additional observations from a re-analysis of the deposited data

Results flagged for a closer look

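Within the 5 animals of a diet, 6 of 44 sets of values examined (22 genes on 2 diets) had 1 animal whose distance to the nearest other, divided by the range of the group, was above Dixon's 95% critical value of 0.71. Chance flags about 1 in 20 groups where values are normally distributed. The values here were normalized counts without a log transform, and their distribution was not tested, so this rate is not a measured one for these groups. Whether the same animals would be flagged on a log scale was not tested. The genes share the same animals.

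UGT3A1 had the largest such value, 0.904, for Chow2 (211 normalized counts against 13.3 to 32.3 in the other chow animals). HFr5 stood apart for MGST1, at 0.850 (67.3 against 17.7 to 25.1), and for SULT2A1, at 0.737 (642 against 310 to 397). HFr2 stood apart for PAPSS2, at 0.841 (8.75 against 3.63 to 4.44), from few reads. HFr3 stood apart for GSTP1, at 0.833 (26.6 against 18.1 to 19.5). Chow2 stood apart for GSTK1, at 0.776 (28.7 against 10.6 to 14.6). In each of the 6 cases the animal that stood apart was the highest of its diet.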

How the results depend on the processing

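Over the 26 alternatives, the count of members with an adjusted p under 0.05 was 0 throughout. The count with an unadjusted p under 0.05, 0 as reported, was 1 with library size only (UGT3A1), 1 with any count accepted (UGT3A1) and 1 with the equal-variance test on the authors' values (GSTZ1), and 0 to 4 with each animal left out. The shares of all transcripts tested under 0.05 in these fits were 1.55%, 4.71% and 4.32%, in that order. With each animal left out they were 3.22% to 5.06%. The count of members was 4 without HFr5 and 1, UGT3A1, without Chow1, Chow3, Chow4 or Chow5. With any count accepted, 14 of 19 members were lower, against 8 of 13, because 6 genes of few reads entered. Of all transcripts tested in that fit, 51.6% were lower. With library size only, 123 transcripts in all had an unadjusted p under 0.05, against 341. Among all transcripts, an adjusted p under 0.05 was given to 2 by DESeq2, to 1 with library size only and to 0 by edgeR.

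Signs turned for 10 of 22 genes, given here as log2 fold changes, among them UGT3A1, which had the largest difference of the members in edgeR. GSTM5 was -0.10 with library size only, -0.027 with the equal-variance test, -0.064 and -0.065 with limma at pseudocounts of 1 and 0.1 and -0.038 with voom weights, and -0.15 to 0.20 with each animal left out. MGST2 was 0.0036 with upper quartile normalization, 0.0017 with 10 counts required in every animal, 0.050 with the equal-variance test, 0.015 and 0.016 with limma at pseudocounts of 1 and 0.1 and 0.031 with voom weights, and -0.087 to 0.075 with each animal left out. NFE2L2 was 0.049 with the equal-variance test and 0.017 and 0.020 with limma at pseudocounts of 1 and 0.1. With each animal left out, the range was -0.16 to 0.16 for MGST3, -0.39 to 0.017 for GSTA2, -0.048 to 0.48 for GSTK1, -0.25 to 0.039 for GSTP1, -1.72 to 0.086 for UGT3A1, -0.21 to 0.25 for NFE2L2, -0.25 to 0.32 for PAPSS2 and -0.19 to 0.023 for NR1I3. The other 12 of 22 genes kept their sign in all alternatives. Why the signs turned was not tested.

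Animals with the same replicate number correlated at -0.29 to 0.10 in their deviations from the diet means. The paper states that animals were assigned to the diets so as to balance age and body weight. The mean age it lists was higher on HFr than on chow, without a significant difference. These correlations cannot show whether same-numbered animals had been matched. With the replicate block, 271 transcripts had an unadjusted p under 0.05, against 341, among them 0 members, and the log2 fold changes of GSTM5, MGST2 and NFE2L2 turned to -0.052, 0.014 and 0.0027, that of UGT3A1 was -0.63, and ACSM5 was no longer under 0.05. Depth limits the 10 untested genes, of which 6 had at most 30 counts in any animal and 4 had none. For UGT3A1, MGST1, SULT1C4 and GSTA1 the 95% intervals reach past 2-fold.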
